A study of Mus musculus with 23 samples.

Results

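The cyclins and Myc studied here are 8 mouse genes, Ccnd1, Ccnd2, Ccne1, Ccne2, Ccna2, Ccnb1, Ccnb2 and Myc. Their regions were taken by name, as every peak to which the authors' tables gave one of these symbols on day -2, -1 or 0. This found 23 of the 32094 peaks with an authors' gene over the 3 days: 8 on day -2, 8 on day -1 and 7 on day 0. Open chromatin was mapped by ATAC-seq, where a transposase cuts and tags accessible DNA, and each value is a number of reads in a peak, a stretch of DNA where tags pile up. The cells were 3T3-L1, an established mouse preadipocyte line able to become adipocytes. Cells on differentiation day -3, still sub-confluent, received 50 nM Kdm5c siRNA, which targets the RNA of a histone demethylase, or non-targeting siRNA at the same dose, named scramble. Nuclei were collected 24 hours (day -2), 48 hours (day -1) and 72 hours (day 0) afterwards. Kdm5c siRNA was given to 4, 4 and 3 libraries on days -2, -1 and 0, and scramble to 4 on each day. Every group is this 1 line in preadipocyte medium. Day, confluence, time since transfection and any processing shared by the libraries of a day move together, so they cannot be told apart.

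Cyclins are the regulatory subunits of cyclin-dependent kinases, and their levels rise and fall through the cell cycle. D cyclins couple growth factor signals to the G1 kinases, E cyclins act at the entry into DNA replication, and cyclin A2 and the B cyclins act in replication and mitosis. Myc is a transcription factor that, with its partner Max, drives genes of growth and division. When 3T3-L1 cells reach confluence they leave the cycle, and hormonal induction then sends them through further divisions before they become fat cells.

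The promoters below are shown for Ccne1, Ccnb1 and Ccnb2, whose named peaks lay over the gene start. RefSeq promoter sequences of GRCm38.p6, from 250 bases before to 50 bases after the gene start, were matched by symbol for 3 of the 8 genes, Ccne1, Ccnb2 and Ccnb1. All are on the minus strand, at chr7:38107441-38107740 for Ccne1, chr9:70421505-70421804 for Ccnb2 and chr13:100786437-100786736 for Ccnb1. They are written 5' to 3', with capitals for matches to the motifs named in the next paragraph.
Ccne1: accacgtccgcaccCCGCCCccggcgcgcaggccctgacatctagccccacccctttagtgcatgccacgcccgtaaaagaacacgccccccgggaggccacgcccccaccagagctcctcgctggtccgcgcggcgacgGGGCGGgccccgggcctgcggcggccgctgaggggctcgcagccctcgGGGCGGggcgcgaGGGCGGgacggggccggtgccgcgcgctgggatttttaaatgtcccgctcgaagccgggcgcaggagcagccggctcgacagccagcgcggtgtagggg
Ccnb2: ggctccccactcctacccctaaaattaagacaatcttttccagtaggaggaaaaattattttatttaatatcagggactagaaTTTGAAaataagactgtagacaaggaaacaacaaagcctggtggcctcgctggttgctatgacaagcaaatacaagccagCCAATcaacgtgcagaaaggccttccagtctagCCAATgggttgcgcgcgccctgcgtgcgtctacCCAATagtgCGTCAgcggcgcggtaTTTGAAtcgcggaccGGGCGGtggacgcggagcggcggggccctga
Ccnb1: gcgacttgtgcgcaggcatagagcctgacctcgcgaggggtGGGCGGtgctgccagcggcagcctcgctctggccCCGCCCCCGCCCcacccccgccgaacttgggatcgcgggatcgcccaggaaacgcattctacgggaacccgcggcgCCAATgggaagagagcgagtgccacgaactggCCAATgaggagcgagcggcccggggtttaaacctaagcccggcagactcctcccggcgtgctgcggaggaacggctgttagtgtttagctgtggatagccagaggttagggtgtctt

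The 3 windows differed from each other in base content and in motif matches. The Ccne1 window had a GC content of 76.0% with 41 CpG pairs and 4 matches to the GC box GGGCGG, starting at positions -236, -110, -62 and -49 from the gene start. The Ccnb2 window had 51.7% GC and 19 CpG pairs, and held the CCAAT box at -87, -54 and -21, the CHR letters TTTGAA at -167 and 5, 1 match to the CRE core TGACG at -12 and 1 GC box. The Ccnb1 window, at 66.3% GC with 29 CpG pairs, held the CCAAT box at -99 and -67 and 3 GC boxes. The medians over all 32851 promoters were 52.7% GC and 7 CpG pairs. Both strands were searched, and of all promoters 37.4% held CCAAT, 35.7% the GC box, 19.2% a CHR form (TTTGAA or TTCGAA) and 20.8% the CRE core. The 3 windows held no match to TATAAA, to the E2F cores TTTCCCGC, TTTCGCGC, TTTGGCGC or TTTGCCGC, to the E box CACGTG, to the full CRE TGACGTCA or to the AP-1 letters TGAGTCA and TGACTCA. Of all promoters, 13.6% held the TATA letters, 2.26% an E2F core, 7.15% the E box, 1.79% the full CRE and 5.20% an AP-1 form. CRE core matches include those inside a full CRE. These matches are letters in a window and do not show binding.

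Peaks covered these windows to different extents. The whole Ccne1 window and the whole Ccnb1 window lay inside the peak on each of the 3 days. For Ccnb2, the peak held 194 of the 300 bases on day -2 and 128 on day -1, and on day 0 no peak had its name. The day -2 peak of Ccnb2 contained all 3 CCAAT letters, the narrower day -1 peak contained 2 of the 3, and the CHR match at -167 lay outside both.

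**Figure D1:**
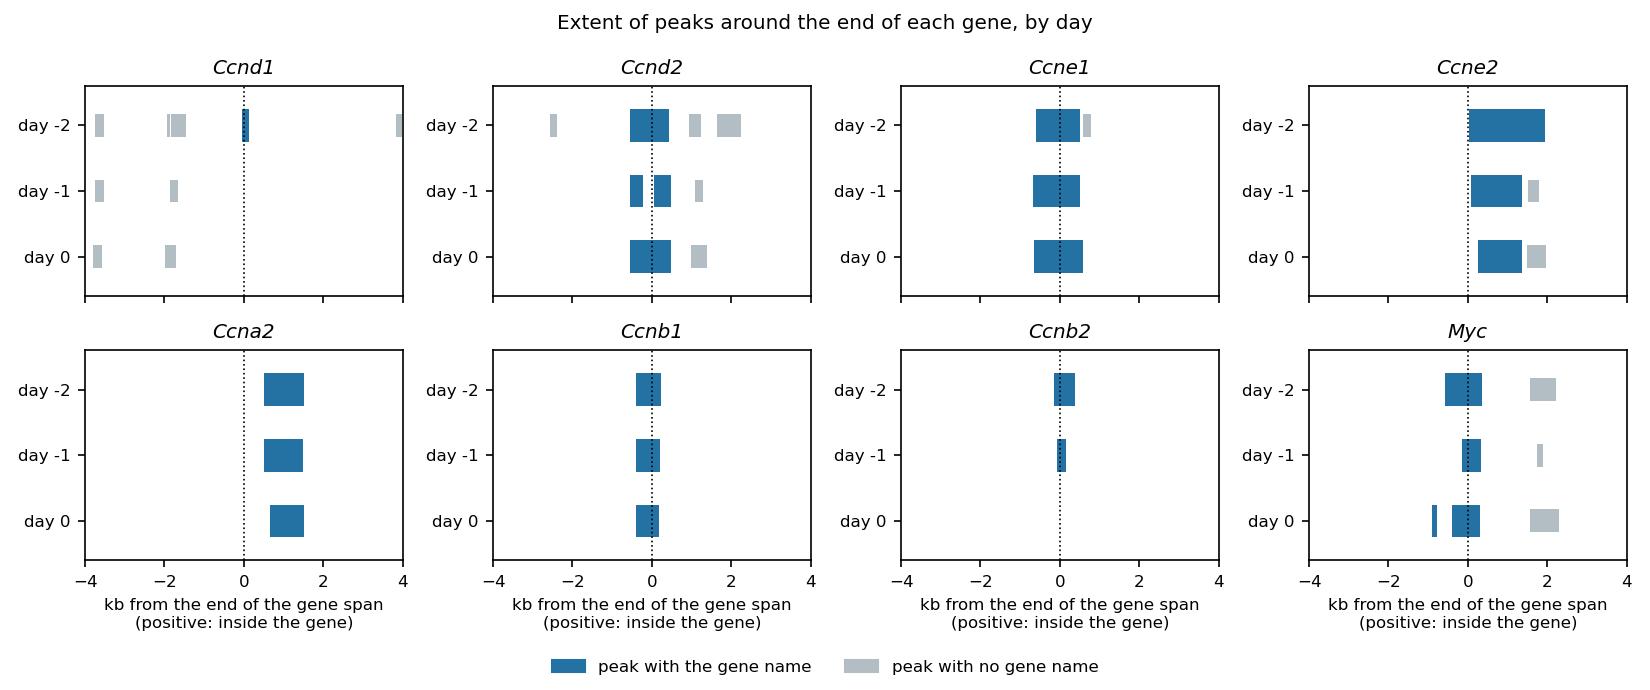
Extent of each peak around the end of each gene, in kb, with days -2, -1 and 0 from top to bottom; blue bars carry the gene name in the authors' tables, grey bars have no gene name, and the dotted line is the end of the gene span nearest the named peak. Ccnd1 has a named peak on day -2 alone, the Ccnd2 peak is split on day -1, and the Ccna2 peak starts at least 517 bp inside the gene.

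Each peak lay at or near 1 edge of its gene span, and its extent changed with the day's peak set. This was the low-coordinate edge at Ccne2 and Myc and the high-coordinate edge at the other genes. For Ccne1, Ccnb1 and Ccnb2, which are on the minus strand, it is the gene start. Where an end of a gene is named here, it means this edge, whichever way the gene is read. Peak positions are given as deposited on GRCm38, and the base from which starts are numbered is not stated there. The peak sets differed in size, with 84019, 31970 and 37054 peaks for days -2, -1 and 0. Of these, 12268, 9692 and 10134 had an authors' gene. Whether absent, split or narrower peaks at the genes studied follow the size of the day's peak set or its read depth was not tested. The Ccnd1 peak was 170 bp wide at chr7:144939706-144939876 and was listed on day -2 only. The Ccnd2 peak spanned 978 bp on day -2 (chr6:127151764-127152742) and 1042 bp on day 0, but on day -1 it was listed as a 427 bp peak and a 321 bp peak, called the lower and upper peak here by their coordinates. Ccne1 had a peak of 1114, 1186 and 1227 bp on days -2, -1 and 0 (chr7:38106977-38108091 on day -2), and Ccne2 had peaks of 1907, 1295 and 1114 bp (chr4:11190463-11192370 on day -2). The Ccna2 peak of 988, 980 and 853 bp lay inside the gene, 517 to 657 bp from its end (chr3:36571533-36572521 on day -2). Ccnb1 peaks were 636, 614 and 603 bp wide (chr13:100786262-100786898 on day -2), and Ccnb2 peaks were 537 bp on day -2 (chr9:70421161-70421698) and 237 bp on day -1. Myc had a peak of 945, 478 and 709 bp over its end (chr15:61984764-61985709 on day -2), and on day 0 a further 126 bp peak 779 bp outside the gene. Other genes start or end within 1 kb of 3 of these sites: the non-coding 9330179D12Rik at Ccnd2, the non-coding A630034I12Rik at Ccne2 and the protein-coding Bbs7 at Ccna2, so accessibility there may not belong to the named gene alone.

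Across the series, peak counts summed to between 4474964 and 14913397 per library, of which mitochondrial peaks took 56.4% to 93.2%, leaving 781309 to 3345583 nuclear counts. Day -2 libraries had between 1816082 and 3345583 nuclear counts, and day -1 libraries between 781309 and 1446979. Those of day 0 had between 1088968 and 2525925. The mitochondrial share was 56.4% to 70.0% with Kdm5c siRNA against 70.4% to 76.3% with scramble on day -2, 87.6% to 92.6% against 90.9% to 93.2% on day -1, and 78.8% to 86.8% against 87.5% to 91.4% on day 0. Of 12 preadipocyte and fibroblast marker genes 10, 9 and 9 had a named peak on days -2, -1 and 0, with Pdgfra and Fn1 never among them. Of 5 mature adipocyte markers 1, 0 and 1 had one, of 6 haematopoietic markers 1, 0 and 0, of 4 endothelial 2, 1 and 1, of 5 epithelial 1, 0 and 0, and of 3 muscle markers 2, 0 and 0. ATAC-seq does not measure Kdm5c RNA, so the knockdown itself was not checked. Each day was tested by edgeR's quasi-likelihood test over all its peaks, with Benjamini-Hochberg adjusted p-values called under 0.05. Normalised counts are raw counts scaled so that most peaks agree between libraries of a day, so each fold change is relative to the bulk of peaks. The labels do not say whether replicates were separate cultures, so the p-values measure the spread between these libraries, which may be technical.

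No cyclin or Myc peak was called between Kdm5c siRNA and scramble on any day. All 23 passed the low-count filter, and edgeR called 0 of 8 on day -2, 0 of 8 on day -1 and 0 of 7 on day 0, where 0.00404%, 0% and 0.00352% of all tested peaks were called. DESeq2 called 0 of them and 0 of all peaks. At an unadjusted p under 0.05 the counts were 0 of 8, 3 of 8 and 1 of 7, where 4.63%, 5.38% and 5.99% of all peaks reached it. The 3 peaks on day -1 are the pair at Ccnd2 and the one at Myc, all with more counts after Kdm5c siRNA, and the 1 on day 0 is Ccne1, with fewer. The arms did not overlap at 0 of 8 members on day -2, 1 of 8 on day -1 and 1 of 7 on day 0, against 2.87%, 3.27% and 6.22% of all tested peaks. The median log2 ratio of Kdm5c siRNA over scramble among the members was 0.11, 0.05 and -0.17 on days -2, -1 and 0, against 2.6e-05, -0.0030 and -0.0091 over all peaks. Over tested peaks with an authors' gene, the class the members come from, it was 0.028, -0.00069 and -0.014.

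**Figure D2:**
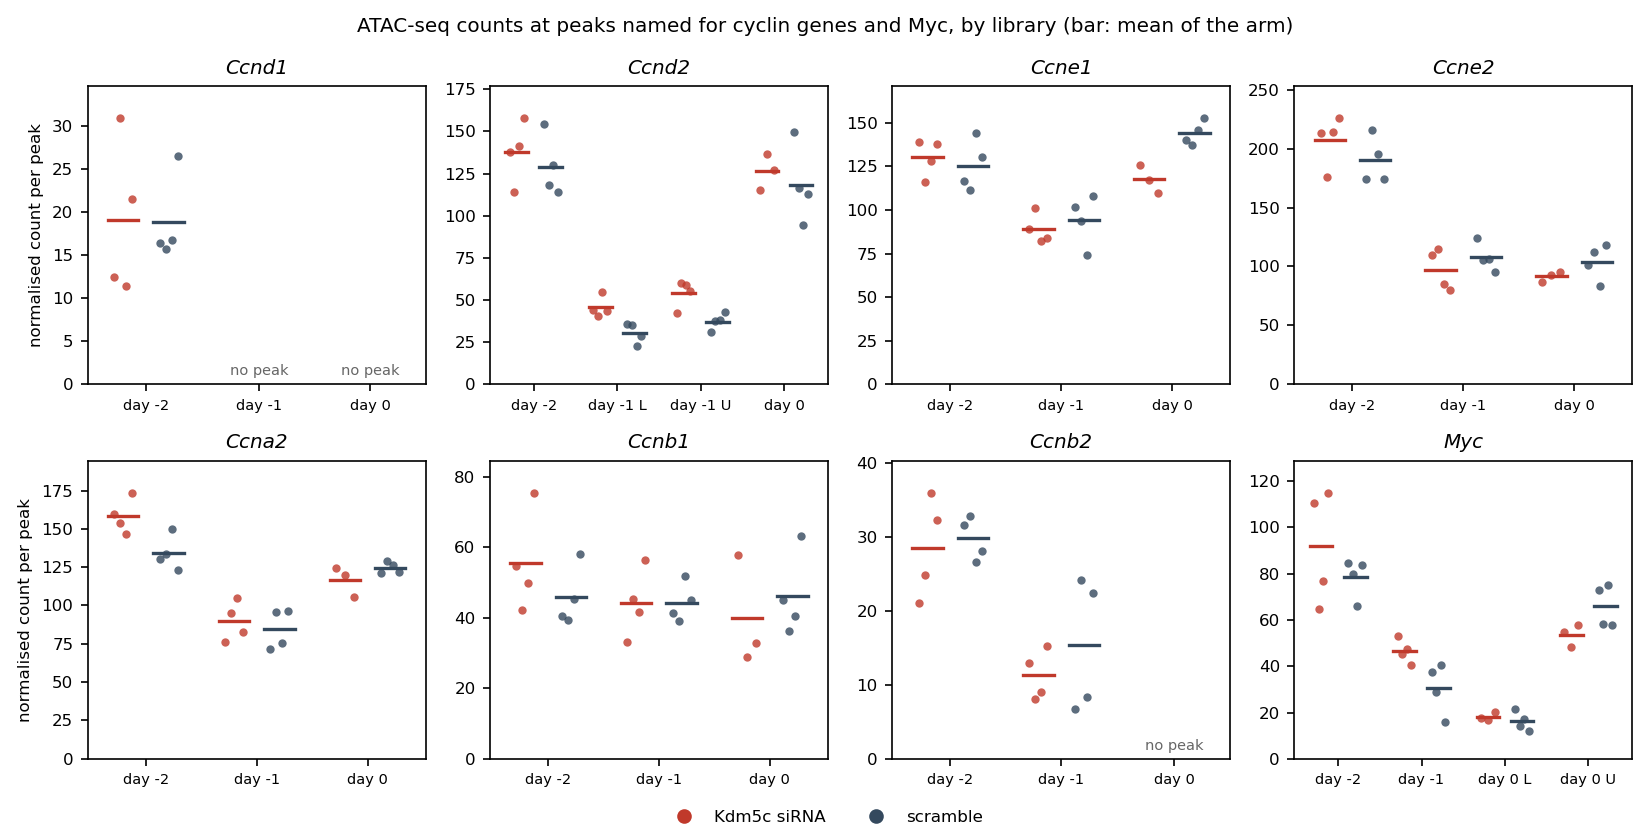
Normalised count per peak (linear axis from 0, its own range per gene) in every library, with Kdm5c siRNA in red left of scramble in dark blue, for each day; points are libraries, short bars are means of the arm, and L and U mark the lower and upper coordinate peak where a gene has a pair. On day -1 the Kdm5c siRNA libraries sit at 40.6 to 54.6 at the lower Ccnd2 peak, all above the scramble libraries at 22.4 to 35.5.

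Among the D cyclins, both Ccnd2 peaks of day -1 had intervals above 0, short of the call. Ccnd2 encodes cyclin D2. At its lower peak the normalised counts were 44.1, 40.6, 54.6 and 43.4 with Kdm5c siRNA, against 35.5, 35.4, 22.4 and 28.9 with scramble. Every Kdm5c siRNA library lay above every scramble library. The log2 ratio was 0.56 (SE 0.23, 95% interval 0.09 to 1.02), with an edgeR adjusted p of 0.857. At the upper peak the counts were 42.0, 60.3, 58.7 and 55.0 with Kdm5c siRNA, against 30.7, 37.2, 37.8 and 42.7 with scramble. Here replicate 1 of Kdm5c siRNA fell just under the highest scramble library, and the log2 ratio was 0.54 (SE 0.21, edgeR adjusted p = 0.857). Both peaks belong to 1 site, so they are not separate evidence. Summed into 1 feature, an alternative added after seeing the data, they gave 0.55 with an edgeR adjusted p of 0.678.

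On the other days the Ccnd2 arms overlapped. On day -2 the counts were 138, 114, 142 and 158 with Kdm5c siRNA, against 154, 118, 130 and 114 with scramble, a log2 ratio of 0.09 (SE 0.15). On day 0 they were 115, 137 and 127 with Kdm5c siRNA, against 149, 117, 94.6 and 113 with scramble, a log2 ratio of 0.10 (SE 0.16). Scramble replicate 1 was the highest library of day 0. Ccnd1, which encodes cyclin D1, had a shallow peak on day -2, with 12.4, 30.9, 11.5 and 21.5 normalised counts after Kdm5c siRNA and 16.4, 15.7, 16.8 and 26.5 after scramble. Its log2 ratio of 0.01 had a 95% interval from -0.75 to 0.77 and ran from -0.36 to 0.21 with each library left out in turn, so neither direction is settled at this depth.

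Among the E cyclins, the arms did not overlap at Ccne1 on day 0, short of the call. Ccne1 encodes cyclin E1, which activates Cdk2 at the start of replication. Its counts on day 0 were 126, 117 and 110 with Kdm5c siRNA, against 140, 138, 146 and 153 with scramble. Every Kdm5c siRNA library lay below every scramble library. The log2 ratio was -0.30 (SE 0.15, 95% interval -0.60 to -0.0040), with an edgeR adjusted p of 0.825. On day -2 Ccne1 had 139, 116, 128 and 138 counts with Kdm5c siRNA, against 116, 112, 144 and 130 with scramble, and on day -1 it had 89.1, 100.9, 81.9 and 84.0 with Kdm5c siRNA, against 102, 94.0, 74.2 and 108 with scramble. The arms overlapped on both days, with log2 ratios of 0.04 (SE 0.15) and -0.10 (SE 0.16).

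Ccne2, which encodes the close relative cyclin E2, had overlapping arms on every day. Its counts ranged from 176 to 226 with Kdm5c siRNA against 175 to 216 with scramble on day -2, from 79.6 to 115 against 95.1 to 125 on day -1, and from 87.1 to 95.6 against 83.5 to 118 on day 0. The log2 ratios were 0.12 (SE 0.14), -0.16 (SE 0.15) and -0.17 (SE 0.17). The 95% interval on day 0 ran from -0.49 to 0.16.

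Cyclin A2 and the B cyclins had overlapping arms on every day with a peak, with log2 ratios between -0.43 and 0.24. Ccna2, whose product acts in S phase and at the entry into mitosis, had 160, 154, 146 and 174 counts with Kdm5c siRNA on day -2, against 130, 134, 150 and 123 with scramble. Only scramble replicate 3 lay inside the Kdm5c siRNA range, and the log2 ratio was 0.24 (SE 0.14, edgeR adjusted p = 0.980). On day -1 Ccna2 had 76.1, 95.1, 105 and 82.5 with Kdm5c siRNA, against 71.9, 95.8, 75.6 and 96.2 with scramble, and on day 0 it had 125, 120 and 105 with Kdm5c siRNA, against 121, 129, 127 and 122 with scramble. These gave log2 ratios of 0.07 (SE 0.16) and -0.11 (SE 0.16). On day -2, where the whole set of peaks is shifted by 0.44 when libraries are scaled to total counts with mitochondrial reads included, that scaling gave Ccna2 a log2 ratio of 0.68 (edgeR adjusted p = 0.045), beside 1224 peaks called of all tested.

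Ccnb1 and Ccnb2 encode cyclins B1 and B2, partners of Cdk1 in mitosis. Ccnb1 had 54.5, 42.2, 49.9 and 75.4 counts with Kdm5c siRNA on day -2, against 40.5, 39.4, 45.4 and 57.9 with scramble, a log2 ratio of 0.24 (SE 0.22). Without Kdm5c siRNA replicate 4, its highest library, this was 0.047, and without scramble replicate 4 it was 0.36. On day -1 it had 33.0, 45.2, 41.5 and 56.5 with Kdm5c siRNA, against 41.2, 39.1, 51.8 and 44.9 with scramble, a difference of 0.02 (SE 0.22) on the log2 scale. On day 0 it had 57.6, 28.8 and 33.0 with Kdm5c siRNA, against 44.95, 36.3, 40.5 and 63.0 with scramble, a log2 ratio of -0.26 (SE 0.25). Replicate 1 of Kdm5c siRNA stood well above its 2 fellow libraries on day 0, and without it the log2 ratio was -0.56, while without scramble replicate 4 it was -0.090. Ccnb2 had 21.1 to 36.0 counts with Kdm5c siRNA against 26.6 to 32.8 with scramble on day -2, and 13.0, 8.12, 9.10 and 15.2 with Kdm5c siRNA against 6.71, 24.2, 8.40 and 22.4 with scramble on day -1. The 4 scramble libraries of day -1 fell into a low and a high pair, and the log2 ratio of -0.43 had a 95% interval from -1.28 to 0.42. It was -0.70 without scramble replicate 1 and -0.13 without scramble replicate 2, so its size rests on single libraries.

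Myc had the largest log2 ratio of the member peaks. On day -1 its counts were 53.1, 45.2, 47.5 and 40.5 with Kdm5c siRNA, against 37.4, 28.8, 40.6 and 16.0 with scramble. The arms met at 40.5 and 40.6, and scramble replicate 4 was the lowest library. The log2 ratio was 0.61 (SE 0.24, 95% interval 0.13 to 1.08), with an edgeR adjusted p of 0.857. Leaving out each library in turn gave 0.40 (without scramble replicate 4) to 0.74. On day -2 the counts were 110, 64.9, 76.9 and 115 with Kdm5c siRNA, against 84.8, 80.0, 66.1 and 83.7 with scramble, a log2 ratio of 0.20 (SE 0.18), which ran from 0.053 to 0.34 when replicate 4 or replicate 2 of the Kdm5c siRNA arm was left out. On day 0 the peak over the gene end had 54.9, 48.4 and 57.7 counts with Kdm5c siRNA, against 73.0, 58.3, 74.9 and 57.7 with scramble, a log2 ratio of -0.29 (SE 0.21). The outer Myc peak of day 0 had 16.7 to 20.3 counts with Kdm5c siRNA against 12.1 to 21.4 with scramble, a log2 ratio of 0.17 (SE 0.42), or 0.051 to 0.33 with each library left out in turn.

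**Figure D3:**
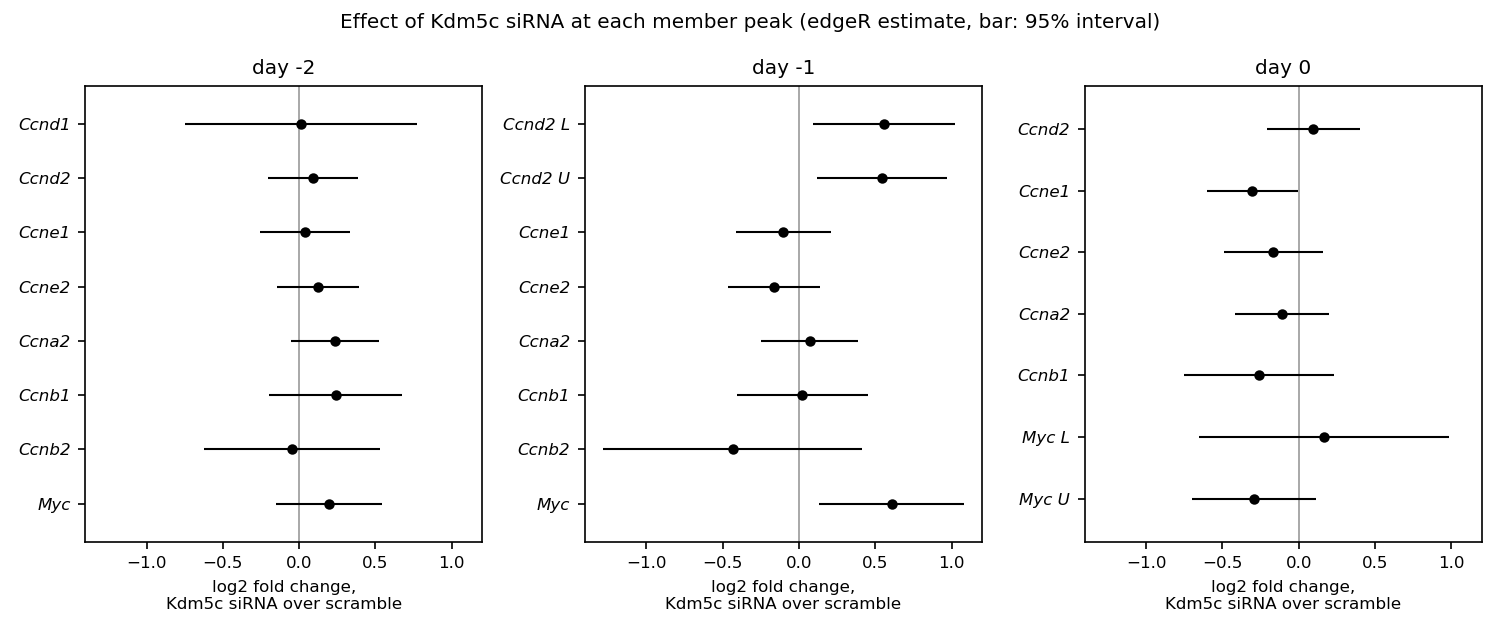
Log2 fold change of Kdm5c siRNA over scramble at each member peak, by day; points are edgeR estimates, bars are 95% intervals, the grey line is no difference, and L and U mark the lower and upper coordinate peak of a gene with a pair. The intervals of the Ccnd2 pair and of Myc on day -1 lie above 0, from 0.09 or higher, and that of Ccne1 on day 0 just below it, while no peak reached an adjusted p under 0.05.

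Whether the siRNA contrast itself changed between days was tested in 1 fit over all 23 libraries, on peaks matched between days by a reciprocal overlap of 50%. Ccne1, Ccne2, Ccna2, Ccnb1 and Myc had such a match. No member was called in any of the 3 contrasts, and 0% of the 13674 tested peaks were called. At an unadjusted p under 0.05 the count was 0 of 5 members for day -1 minus day -2, 1 of 5 for day 0 minus day -1 and 0 of 5 for day 0 minus day -2, against 4.97%, 5.24% and 6.46% of all tested peaks. The 1 member was Myc. Its siRNA effect on day 0 minus that on day -1 was -0.91 on the log2 scale (SE 0.31, 95% interval -1.52 to -0.31), with an edgeR adjusted p of 0.764. For day 0 minus day -2 the estimates were -0.52 for Ccnb1, -0.52 for Myc, -0.38 for Ccna2, -0.37 for Ccne1 and -0.32 for Ccne2, with edgeR adjusted p-values from 0.776 to 0.823. These 5 values share the libraries of both days.

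Between days, edgeR called 0 of 5 members for day -1 minus day -2 and 1 of 5 for day 0 minus day -1. For day 0 minus day -2 it called 0 of 5. Of all tested peaks, 12.1%, 10.7% and 20.3% were called in these contrasts. The 1 member was Ccna2, with more counts per base on day 0 than on day -1. Processing shared by the libraries of a day cannot be told apart from the day itself. Peak boundaries differ between days, so counts were compared per base of peak and averaged over both arms, and values are normalised counts per kb scaled across all 23 libraries. On day 0 the densities at Ccna2 were 148, 140 and 125 with Kdm5c siRNA and 144, 154, 150 and 143 with scramble. On day -1 they were 96.1, 119, 131 and 104 with Kdm5c siRNA and 90.3, 120, 94.2 and 120 with scramble. Every scramble library of day 0 was above every library of day -1, while the Kdm5c siRNA libraries of the 2 days overlapped. The log2 difference of day 0 minus day -1 was 0.38 (SE 0.10, 95% interval 0.17 to 0.58), with an edgeR adjusted p of 0.0084, and 4.78% of the 13674 tested peaks were called higher on day 0 and 10.7% in either direction. The day 0 peak was 853 bp wide against 980 bp on day -1, and without the correction for width the difference was 0.13 (edgeR adjusted p = 0.427). In this contrast the scramble libraries alone called 679 of 13616 tested peaks, and the Kdm5c siRNA libraries alone 210 of 13654. Within the scramble libraries the Ccna2 difference was 0.48 (edgeR adjusted p = 0.034), and within the Kdm5c siRNA libraries 0.29 (edgeR adjusted p = 0.377). Whether these 2 values differ is the day 0 minus day -1 contrast of the siRNA effect at Ccna2, -0.19 (SE 0.21, edgeR adjusted p = 0.970).

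With peak width corrected for and all libraries in, the other members did not reach the call between days. For day -1 minus day -2, where 12.1% of tested peaks were called, Ccnb1 differed by 0.41 (SE 0.16, edgeR adjusted p = 0.075) and Myc by 0.37 (SE 0.15, edgeR adjusted p = 0.076) on the log2 scale. Single libraries decide these: Ccnb1 was called at 0.49 without Kdm5c siRNA day -2 replicate 4 (edgeR adjusted p = 0.039), at 0.49 without scramble day -2 replicate 4 (edgeR adjusted p = 0.046) and at 0.47 without Kdm5c siRNA day -1 replicate 1 (edgeR adjusted p = 0.049). Myc was called at 0.43 without Kdm5c siRNA day -2 replicate 4 (edgeR adjusted p = 0.048) and at 0.48 without scramble day -1 replicate 4 (edgeR adjusted p = 0.021). Myc densities on day -1 averaged 120 ± 13.7 with Kdm5c siRNA and 78.8 ± 28.2 with scramble, and on day -2 they averaged 81.7 ± 21.6 with Kdm5c siRNA and 69.3 ± 9.25 with scramble (normalised counts per kb, SD, n = 4 each). The Myc peak was 478 bp wide on day -1 and 945 bp on day -2, and without the correction for width the difference was -0.46 (edgeR adjusted p = 0.016). Without that correction 5 further differences were called. That fit called 2354 of all 13674 tested peaks for day -1 minus day -2. It called 2148 for day 0 minus day -1 and 4371 for day 0 minus day -2. Ccnb1 had 0.51 for day -1 minus day -2 (edgeR adjusted p = 0.016), and Ccne1 had 0.39 for day 0 minus day -2 (edgeR adjusted p = 0.00085). Ccne2, whose peak was narrower on each later day, had -0.25 for day -1 minus day -2 (edgeR adjusted p = 0.049), -0.39 for day 0 minus day -1 (edgeR adjusted p = 0.0043) and -0.64 for day 0 minus day -2 (edgeR adjusted p = 5.0e-08). For day 0 minus day -2, where 20.3% of tested peaks were called, the 5 members lay between 0.03 and 0.20, the highest being Ccna2 (edgeR adjusted p = 0.133). Within the scramble libraries, where 1728 of 13616 tested peaks were called, Ccna2 was called at 0.40 (edgeR adjusted p = 0.045). Counting all regions of 1 site together, an alternative added after seeing the data, Ccne1 on day 0 minus day -2 had 0.26 (edgeR adjusted p = 0.047). The same alternative brought in Ccnd2, whose siRNA effect of day 0 minus day -1 was -0.47 (SE 0.22, edgeR adjusted p = 0.879).

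**Figure D4:**
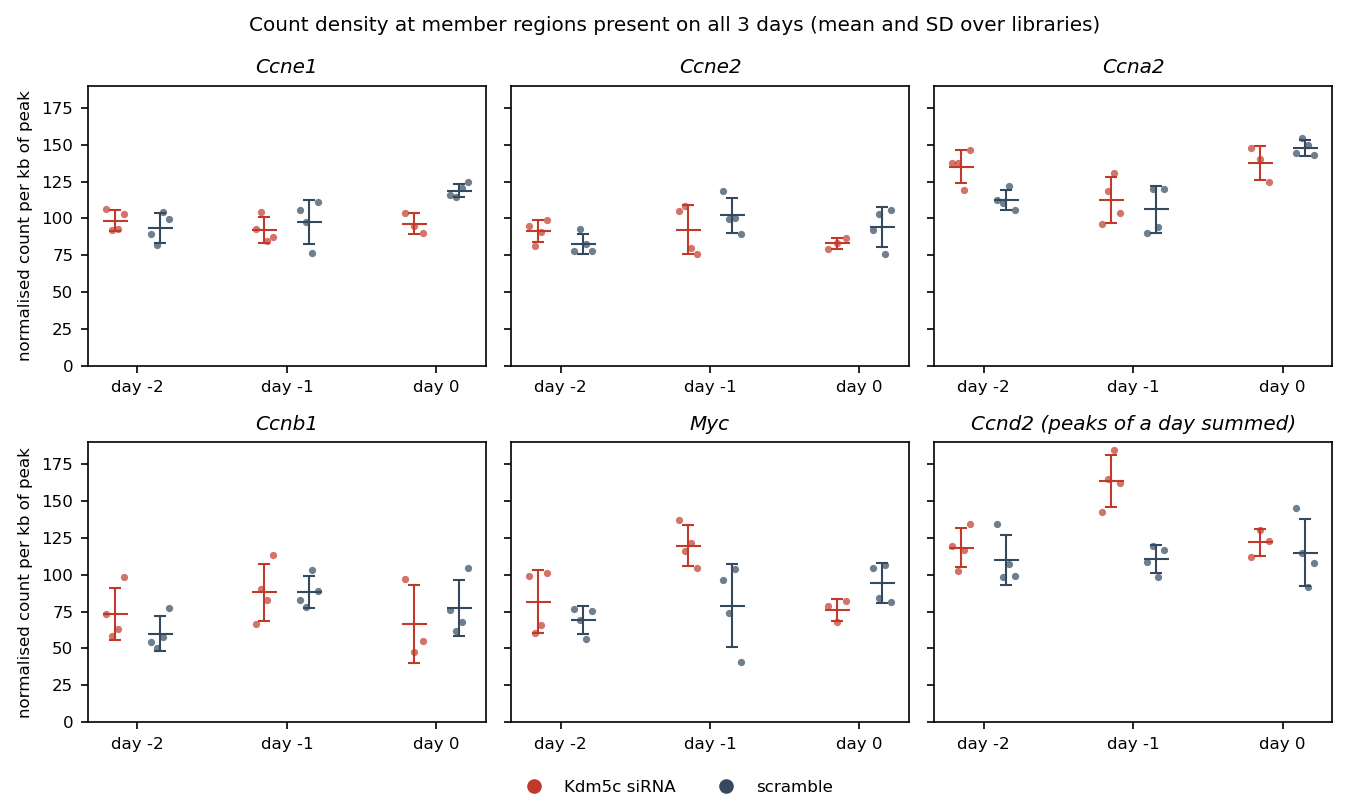
Normalised counts per kb of peak (linear axis from 0) at the 6 member sites with a peak on every day, by day, with Kdm5c siRNA in red left of scramble in dark blue; points are libraries, and bars are the mean and SD of a group of 3 or 4 libraries. At Ccna2 the scramble libraries of day 0 lie at 143 to 154, above those of day -1 at 90.3 to 120.

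Per length, Ccna2 stood at or next to the top of the members on each day and a B cyclin gene at the bottom. On the scale of normalised counts per kb, scaled across all libraries, Ccna2 had the highest median on day -2 at 121 (range 106 to 146) and Ccnb2 the lowest at 47.2 (33.4 to 54.1). Between them, from high to low, came Ccnd2 at 112, Ccne1 at 96.2, Ccne2 at 86.6, Ccnd1 at 81.0, Myc at 72.2 and Ccnb1 at 60.9. On day -1 the upper Ccnd2 peak led at 162 and Ccnb2 was again lowest at 57.4, and on day 0 Ccna2 led at 144 and Ccnb1 was lowest at 68.0. Each pair of neighbours in these orders overlapped over its libraries. Against all peaks with an authors' gene, the median density of Ccna2 stood at percentile 90.9, 82.2 and 93.4 on days -2, -1 and 0, and that of Ccnb1 at percentile 37.8, 60.7 and 37.3. The day -1 peaks of Ccnd2 and Myc are narrower than those over the gene end on other days. The Ccnd2 pair covers both ends of the day -2 peak but not the stretch between, and the Myc peak lies toward the high-coordinate side of the day -2 peak, so their densities are not on an equal footing with these. Extents on days -2, -1 and 0 also changed at Ccne2 (1907, 1295 and 1114 bp) and Ccna2 (988, 980 and 853 bp). Densities of these genes carry the same limit across days.

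Around the genes, 35 further peaks with no authors' gene overlapped a member or lay within 10 kb of it. They were near Ccnd1, Ccnd2, Ccne1, Ccne2 and Myc, and there were none at Ccna2, Ccnb1 or Ccnb2. Of the 26 that passed the filter, none was called by edgeR, and the number with an unadjusted p under 0.05 was also 0. Their log2 ratios ran from -0.39 to 0.87. At 6 sites overlapping peaks were tested on all 3 days. The site inside Myc (chr15:61986899-61987569 on day -2) had 79.2 ± 6.90 counts with Kdm5c siRNA and 71.2 ± 11.6 with scramble on day -2, and 66.5 ± 2.89 with Kdm5c siRNA (n = 3) and 60.2 ± 9.43 with scramble on day 0 (SD, n = 4 otherwise). On day -1 it had 18.2 ± 3.77 counts with Kdm5c siRNA and 23.5 ± 2.68 with scramble (SD, n = 4 each), a log2 ratio of -0.39 (SE 0.32), where the peak over the Myc end had 0.61. A site outside Myc (chr15:61998907-61999246 on day -2) had log2 ratios of -0.10, 0.47 and 0.48 on days -2, -1 and 0, with SEs of 0.28, 0.33 and 0.45.

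The sites near the D and E cyclins were measured with wide errors. The site nearer to Ccnd1, 1462 bp outside it on day -2 (chr7:144941293-144941674), had log2 ratios of -0.21, 0.09 and -0.31 on days -2, -1 and 0, with SEs of 0.33, 0.39 and 0.40. The farther site, 3525 bp outside Ccnd1 on day -2 (chr7:144943356-144943590) had log2 ratios of 0.07, 0.87 and 0.23 on days -2, -1 and 0, with SEs of 0.34, 0.45 and 0.50. On day -1 it held 17.0 ± 7.90 normalised counts with Kdm5c siRNA and 8.91 ± 3.21 with scramble (SD, n = 4 each). The site inside Ccnd2 (chr6:127150961-127151253 on day -2) had 0.38, -0.06 and -0.10, with SEs of 0.20, 0.25 and 0.23, so the day -1 difference of the peak at the gene end was not seen at this site. The site outside Ccne1 (chr7:38111979-38112122 on day -2) had 0.41, -0.25 and -0.04, with SEs of 0.55, 0.32 and 0.29.

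The wider pathway gave no call either. Over 5 lists of 71 genes, 59, 57 and 59 genes had a named peak on days -2, -1 and 0, and 65, 55 and 63 of their peaks were tested. edgeR called 0 on each day, and an unadjusted p under 0.05 was reached by 2 higher and 1 lower on day -2, 1 higher and 1 lower on day -1, and 4 higher and 1 lower on day 0. Of all tested peaks, 4.63%, 5.38% and 5.99% reached it on days -2, -1 and 0. The median log2 ratios of the lists were 0.04, -0.06 and -0.02, against 2.6e-05, -0.0030 and -0.0091 over all peaks. Of 12 kinases, activators and brakes, such as Cdk1, Cdk4 and Wee1, 10 had a peak on each day and 0 reached an unadjusted p under 0.05. Of 18 other cyclins, 13 had a peak, and on day -2 Ccnc, the cyclin of the Mediator kinase module, had 77.2 ± 14.0 counts with Kdm5c siRNA against 105 ± 26.1 with scramble (SD, n = 4 each), a log2 ratio of -0.43 (edgeR adjusted p = 0.980). Ccny, a membrane-associated cyclin, had 0.33 (SE 0.16) and the Myc-binding Bin1 had 1.20 (SE 0.61) on that day, with the same edgeR adjusted p of 0.980. The Bin1 peak was shallow, with 13.2 ± 4.44 counts after Kdm5c siRNA against 5.57 ± 3.79 after scramble (SD, n = 4 each).

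Among genes known to be activated by Myc, 14 of 16 had a peak on each day, and Ddx21, a nucleolar RNA helicase, had estimates of opposite sign on 2 days without a call. Its counts averaged 56.7 ± 8.66 with Kdm5c siRNA (n = 3) and 30.8 ± 9.17 with scramble (n = 4) on day 0, a log2 ratio of 0.88 (SE 0.25, edgeR adjusted p = 0.518). On day -1 they averaged 16.4 ± 4.38 with Kdm5c siRNA and 28.2 ± 13.7 with scramble (SD, n = 4 each), a log2 ratio of -0.82 (SE 0.32, edgeR adjusted p = 0.857). In the Myc network, Mxd3, which competes with Myc for Max, had 0.50 on day 0 (edgeR adjusted p = 0.712). Among genes for the turnover of cyclins and Myc, Cdc20, an activator of the complex that marks cyclin B for destruction, had 0.45 on day 0 (edgeR adjusted p = 0.816), and the mitotic kinase gene Aurka had -0.29 on day -1 (edgeR adjusted p = 0.926). Eif4e, the cap-binding translation factor, had 0.30 on day -1 (edgeR adjusted p = 0.919).

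For likeness, 4 members had matched peaks above the median abundance, and for each the gene peaks that varied most alike over the 23 libraries were sought, after the mean of each day and arm was subtracted. Ccne1 was most like the peaks of Kat7, a histone acetyltransferase gene (Pearson's r = 0.74), and Prkacb, a protein kinase A subunit gene (0.73). Ccne2 was most like Bag6 (0.80) and Zyg11b (0.73), and Ccna2 was most like Arhgef40 (0.80) and Ywhah (0.76). Myc was most like Exog (0.80) and Atp13a1 (0.80). These are the highest of 6889 peaks, whose median r lay between -0.03 and 0.01 and whose 99th percentile lay between 0.53 and 0.60. Picked as the highest of so many, they were not tested against chance. They are descriptions over libraries that share depth and preparation.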

How the data were processed

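ATAC-seq libraries of 3T3-L1 cells were analysed from the tables the authors deposited for each day. These hold raw counts of reads per peak, which entered every test, and a normalised signal for peaks with a gene name. The authors' deposited signal equalled the raw count divided by 1 constant per library (tolerance 1e-08) and was used for the names. Tools named in the submitters' processing notes are MACS2 2.1.1, Bowtie2 2.2.9, DESeq2 1.24.0, HTSeq 0.9.1 and cutadapt 2.3, with the build GRCm38. The sources used here do not give their roles and settings, the pooling of libraries, or the handling of duplicates, mitochondrial reads and the transposase shift.

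Each day's count table was fitted whole with edgeR 4.0.16 (R 4.3.3; quasi-likelihood test, TMM, filterByExpr, no covariate), and p-values were adjusted over all tested peaks. Comparisons of days used peaks matched by a reciprocal overlap of 50%, with log peak width as an offset and scaling factors computed on width-adjusted counts. The SE was derived from the F statistic. DESeq2 1.42.0, other scalings, filters, matchings, single arms and each library left out were alternatives. Replicate numbers were not used as pairs in the main fits (same-number correlations -0.04 to 0.16 over 11 pairs), and entered as a block among the alternatives. Likeness used log2 of normalised count plus 1. Named were all member peaks, unnamed sites within 10 kb tested on 3 days, the 3 pathway peaks of smallest p per day, and 2 like peaks per gene. The members and lists were chosen with earlier results of these data known. Steps were tested on simulated data.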

Additional observations from a re-analysis of the deposited data

Results flagged for a closer look

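At the Ccnd1 peak of day -2, scramble replicate 4 had a normalised count of 26.5, while the other scramble libraries had 15.7 to 16.8, so that its gap to the next library was 0.905 of the group's range. 39 groups of libraries were examined in this way, and chance sets about 1 in 20 apart. The Kdm5c siRNA libraries of that day ran from 11.5 to 30.9, so the value lies within the range of the other arm.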

How the results depend on the processing

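The count of called cyclin and Myc peaks between arms stayed at 0 on days -1 and 0 under every alternative run, and on day -2 under all but total-count scaling, which gave 1 (Ccna2). No difference of the siRNA effect between days was called for a member under the alternatives run. Over all peaks, the calls on day -2 were 1 with RLE factors, 1224 with total counts, 1 without mitochondrial peaks, 0 with DESeq2 and 2 to 11 with a library left out. On day 0 they were 2 with RLE factors, 0 with total counts, 2 without mitochondrial peaks, 6 with no low-count filter, 0 with DESeq2 and 0 to 10 with a library left out, and on day -1 they were 1 with total counts. The labels do not say whether libraries of 1 replicate number belong together. Same-number correlations ran from -0.04 to 0.16, and in 5 of 11 pairs the Kdm5c siRNA library was most like the scramble library of its own number. These values do not settle whether libraries were paired, and the main fit used no pairing. With the replicate number as a block, all peaks called were 5, 1 and 0 on days -2, -1 and 0, no member was called, and the signs turned for Ccnd1 on day -2 (-0.045) and Ccnb1 on day -1 (-0.0068). The count of member calls between days was 1, but 12 with total counts, 6 without the width offset, 2 in scramble libraries alone, 0 in Kdm5c siRNA libraries alone, 2 with merged regions and 1 to 3 with a library left out. All-peak calls follow for day -1 minus day -2, day 0 minus day -1 and day 0 minus day -2. The main fit called 1656, 1468 and 2769 of 13674 peaks. Total counts called 13624, 6742 and 12778 of 13674, and no width offset 2354, 2148 and 4371. Scramble libraries alone called 583, 679 and 1728 of 13616, and Kdm5c siRNA libraries alone 380, 210 and 750 of 13654. Ccnb1 and Myc (day -1 minus day -2) were the members added when 1 of 4 libraries was left out, 3 of them for Ccnb1 and 2 for Myc. The Ccna2 call of day 0 minus day -1 held in all 23 fits with a library left out (0.34 to 0.42). It was lost without the width offset (0.13, edgeR adjusted p = 0.427) and in Kdm5c siRNA libraries alone (0.29, edgeR adjusted p = 0.377). The cause of these changes was not tested, other than that total counts include mitochondrial reads.

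Other signs turned as follows, several of them well away from 0. Total counts moved the median of all peaks by 0.44, 0.38 and 0.56 on days -2, -1 and 0, and against that shift gave log2 siRNA effects on day -2 of 0.37 for Ccnb2, 0.012 for Ccnc 0.34 for the site outside Myc and 0.23 for the nearer site outside Ccnd1. On day -1 they gave 0.28 for Ccne1, 0.21 for Ccne2, 0.0088 for Ccnb2, 0.088 for Aurka, 0.35 for the site inside Ccnd2 and 0.087 for the site outside Ccne1. On day 0 they gave 0.26 for Ccne1, 0.41 for Ccne2, 0.44 for Ccna2, 0.33 for Ccnb1, 0.28 for the upper Myc peak, 0.48 for the site inside Ccnd2, 0.53 for the site outside Ccne1 and 0.35 for the nearer site outside Ccnd1. Between days total counts moved the median of all peaks by -1.43 (day -1 minus day -2), 0.50 (day 0 minus day -1) and -0.93 (day 0 minus day -2). They gave, in that order, Ccnb1 -1.01, 0.16 and -0.85, Myc -1.07, 0.33 and -0.73, and Ccne2 -1.28, 0.38 and -0.90, and for day 0 minus day -2 -0.79 for Ccne1 and -0.74 for Ccna2. Without the width offset, day -1 minus day -2 was 0.23 for Ccne1, -0.46 for Myc and -0.25 for Ccne2, day 0 minus day -2 was -0.64 for Ccne2 and -0.12 for Myc, and day 0 minus day -1 was 0.34 for Myc. Kdm5c siRNA libraries alone gave day 0 minus day -2 values of -0.18 for Ccnb1, -0.032 for Ccne1, -0.13 for Ccne2 and -0.067 for Myc, and scramble libraries alone gave 0.059 for Ccne1 (day -1 minus day -2) and 0.28 for Myc (day 0 minus day -1). Merged regions gave 0.079 for Ccne1 and -0.035 for Ccne2 (day -1 minus day -2), -0.23 for Ccne2 (day 0 minus day -2) and 0.15 for the siRNA effect at Ccne2 (day 0 minus day -1). DESeq2 and no low-count filter gave Ccnd1 -0.040 and -0.052 on day -2.

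With each library left out in turn, the ranges that crossed 0 were, for day -2, -0.36 to 0.21 at Ccnd1, -0.031 to 0.10 at Ccne1, -0.21 to 0.051 at Ccnb2 -0.42 to 0.054 at the nearer site outside Ccnd1 and -0.062 to 0.16 at the farther one. For day -1 they were -0.14 to 0.13 at Ccnb1, -0.015 to 0.14 at Ccna2, -0.23 to 0.34 at the nearer site outside Ccnd1 and -0.24 to 0.17 at the site inside Ccnd2. For day 0 they were -0.0042 to 0.23 at Ccnd2, -0.31 to 0.59 at the farther site outside Ccnd1, -0.26 to 0.0082 at the site inside Ccnd2 and -0.12 to 0.035 at the site outside Ccne1. Between days they were -0.11 to 0.070 for the siRNA effect at Ccne2 (day 0 minus day -1), -0.047 to 0.028 at Ccne1 (day -1 minus day -2) and -0.069 to 0.17 at Ccnb1 (day 0 minus day -2). The other siRNA effects at members that moved by over 1.5 times ran, for day -2, from 0.00083 to 0.18 at Ccnd2, 0.059 to 0.20 at Ccne2, 0.047 to 0.36 at Ccnb1 and 0.053 to 0.34 at Myc. For day -1 they ran from -0.19 to -0.036 at Ccne1, -0.25 to -0.069 at Ccne2, -0.70 to -0.13 at Ccnb2 and 0.40 to 0.74 at Myc, and for day 0 from -0.16 to -0.033 at Ccna2, -0.26 to -0.11 at Ccne2, -0.56 to -0.090 at Ccnb1 and 0.051 to 0.33 at the lower Myc peak. Depth limits the narrow peaks most: raw counts per library ran from 6 to 262 over the member peaks.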
